A study of Mus musculus with 156 samples.

Results

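Mianserin, an antidepressant that blocks histamine, serotonin and alpha2-adrenergic receptors, was set directly against risperidone, an antipsychotic that blocks dopamine and serotonin receptors. The comparison took 24 arrays, from a series that also holds vehicle and other drugs, 12 from mianserin-treated mice and 12 from risperidone-treated mice, with 3 arrays for each drug at each of 1, 2, 4 and 8 h after a single intraperitoneal injection. Mianserin was given at 20 mg/kg in saline and risperidone at 0.5 mg/kg in 1% Tween 80, so drug, dose and vehicle change together and cannot be told apart in the direct comparison. All animals were male C57BL/6J mice, 6 to 10 weeks old by the labels, and each array held striatal RNA (rostral caudate putamen with nucleus accumbens) pooled from 2 mice. Vehicle arrays, 3 after saline and 3 after Tween 80 at each time, entered no difference between the drugs and are given as a level to read the signals against. Between Tween 80 and saline arrays limma called 0 probes at each time and over the 4 times, with 615 to 2262 probes at an unadjusted p under 0.05.

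Drugs that act on monoamine receptors change transcription in the striatum in waves. Immediate early genes, such as the Egr and Fos families, respond to synaptic activity within the first hours and encode transcription factors and synaptic proteins. A slower group follows circulating glucocorticoids, which reach the brain after stress or drug injection, bind the glucocorticoid receptor and raise targets such as *Fkbp5*, *Tsc22d3* and *Sgk1*. The blood level of the hormone falls again once the stimulus ends, and how fast such transcripts follow also depends on their stability. Neither hormone levels nor transcript half-lives were measured on these arrays.

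Whether the drugs differed was tested for each of 45279 probes, of which 34883 had 1 gene symbol, and a probe was called at an adjusted p under 0.05 (limma, Benjamini-Hochberg over all probes). Over the 45279 probes the mean log2 signal had a median of 8.03 and a 90th percentile of 11.11, so a signal near 8 is dim. Arrays of 1 group correlated with a median r of 0.988. Deviations from the group means correlated by 0.235 on average between arrays of 1 chip, against -0.012 between chips. Signals and differences are on the log2 scale of the quantile-normalized signal, and a difference is always mianserin minus risperidone. At 1 h the test called 1 probe (0.00221% of those tested), and at 2 h it called 0 probes (0%), with 1859 at an unadjusted p under 0.05 in limma and 2071 in the methods' t-test, which called 0 after adjustment. At 4 h it called 3 probes (0.00663%). At 8 h it called 52 probes (0.115%), of which 40 were higher (0.0883%) and 12 lower (0.0265%) after mianserin than after risperidone. Averaged over the 4 times, 7 probes were called (0.0155%), and the F test over the 4 times called 42 (0.0928%). The 8 h count was 20 without mianserin 8 h replicate 1, 94 without mianserin 8 h replicate 2, 32 without mianserin 8 h replicate 3 or without risperidone 8 h replicate 1, and 27 without risperidone 8 h replicate 3. The split at 8 h was 17 higher and 1 lower under median scaling, and 11 higher and 0 lower when each drug was taken relative to its own vehicle.

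Cyclin-dependent kinase inhibitor *Cdkn1a* had the lowest adjusted p at 8 h, and of the 4 times it was called at 8 h alone. Its signal (probe ILMN_2634083) was 10.59, 10.15 and 10.33 on the mianserin arrays at 1 h, against 10.27, 10.35 and 10.54 on the risperidone arrays. At 4 h it was 12.04, 12.10 and 11.75 after mianserin, against 12.38, 11.97 and 12.22 after risperidone. Both drugs had then left the vehicle range of 9.77 to 10.11, and their arrays overlapped. At 8 h it was 12.87, 12.08 and 12.43 after mianserin, against 10.78, 10.66 and 11.37 after risperidone, and 9.61 to 10.54 on the 6 vehicle arrays. All 3 mianserin arrays lay above all 3 risperidone arrays, and the risperidone arrays still lay above the highest vehicle array. Relative to the vehicle mean, *Cdkn1a* was at 2.02 and 2.59 at 4 and 8 h after mianserin, and at 2.25 and 1.07 after risperidone. The 8 h difference was 1.52 ± 0.17 (limma SE, 3 arrays each), a fold of 2.87 (adjusted p = 1.07e-09, limma). Here and below, the SE of a difference is moderated and takes each probe's spread from all groups in the fit. It is not the SE of the 3 arrays per drug alone. Their SDs at 8 h were 0.39 after mianserin and 0.38 after risperidone. All 3 *Cdkn1a* probes were called, at 1.44 to 1.57.

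**Figure D1:**
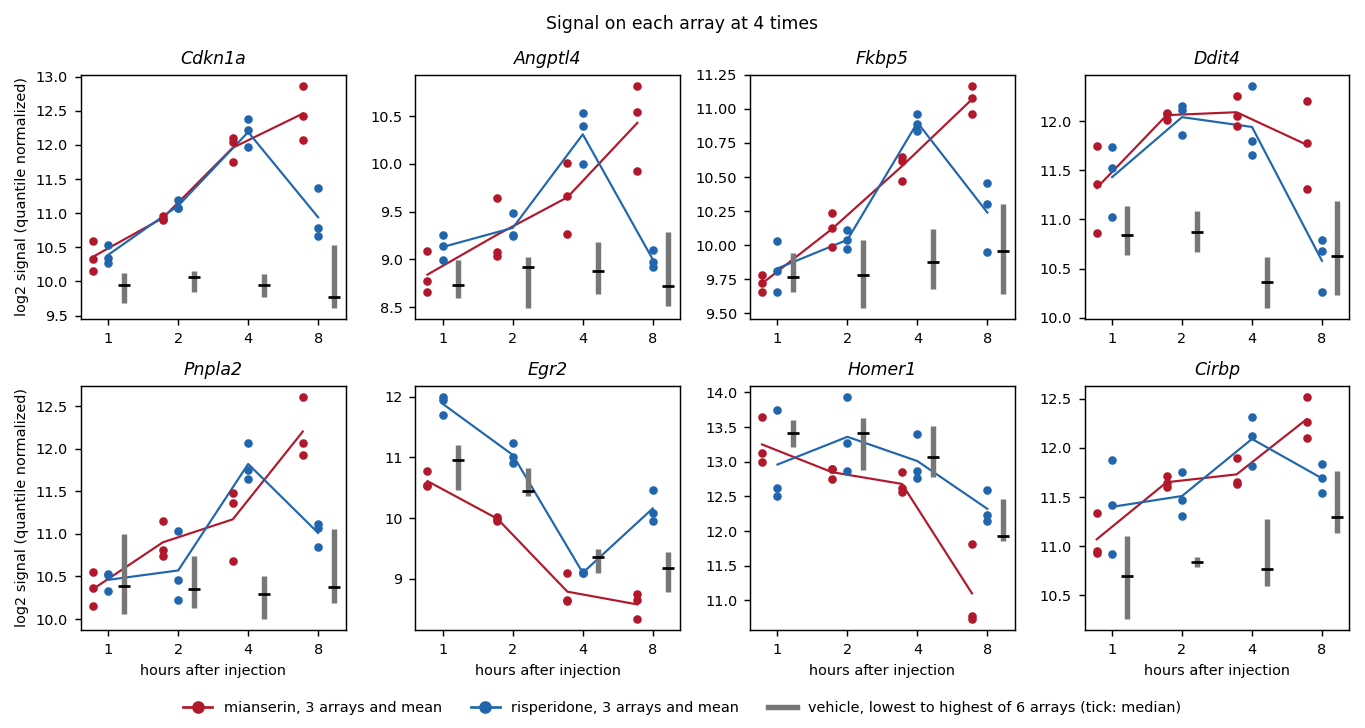
Quantile-normalized log2 signal of 8 genes (y axis) against hours after injection (x axis), with 1 point per mianserin or risperidone array, lines through the means of 3 arrays, and grey bars from the lowest to the highest of 6 vehicle arrays with a tick at the median. At 8 h the mianserin points of *Cdkn1a*, *Angptl4* and *Fkbp5* lie above all risperidone points, while *Egr2* was lower after mianserin at 1, 2 and 8 h.

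*Angptl4*, a secreted inhibitor of lipoprotein lipase, changed order between 4 and 8 h on the means of 3 arrays. Its signal at 4 h was 9.66, 10.01 and 9.27 on mianserin arrays, against 10.40, 10.00 and 10.53 on risperidone arrays. At 8 h it was 9.93, 10.54 and 10.82 after mianserin, against 8.97, 8.92 and 9.10 after risperidone, with vehicle arrays at 8.51 to 9.29. The risperidone arrays were thus inside the vehicle range at 8 h and the mianserin arrays were all above it. The 8 h difference was 1.43 ± 0.19 (limma SE, 3 arrays each, adjusted p = 1.11e-07, limma), a fold of 2.70. A dimmer second probe of the gene gave 0.12 and was not called.

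*Fkbp5*, a co-chaperone that restrains the glucocorticoid receptor and is itself one of its targets, took the same course. At 4 h its signal was 10.62, 10.65 and 10.47 after mianserin, against 10.96, 10.84 and 10.89 after risperidone. At 8 h it was 11.08, 10.96 and 11.17 after mianserin, against 10.30, 9.95 and 10.46 after risperidone. The groups did not overlap at either time, with mianserin below risperidone at 4 h and above it at 8 h. The 8 h difference of 0.83 ± 0.14 (SE) was called (adjusted p = 4.01e-04, limma), and the 4 h difference of -0.32 was not. The triglyceride lipase gene *Pnpla2* read 12.07, 11.93 and 12.61 at 8 h after mianserin, against 10.85, 11.12 and 11.07 after risperidone, a difference of 1.19 ± 0.22 (SE, adjusted p = 0.00116, limma). *Hif3a*, an alpha subunit of the hypoxia-inducible factors, read 10.15, 10.18 and 11.04 at 8 h after mianserin, against 9.35, 9.50 and 9.02 after risperidone, a difference of 1.16 ± 0.21 (SE, adjusted p = 0.00116, limma). Its other 2 probes gave 0.15 and 0.23 and were not called.

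A change of the difference between 4 and 8 h was tested in itself. It was called for 12 probes in the direction of mianserin at 8 h (0.0265%) and for 7 in the opposite direction (0.0155%), and the interaction of drug and time over the 4 times was called for 18 (0.0398%). The difference moved by 2.09 ± 0.27 (SE) for *Angptl4* (adjusted p = 8.67e-08, limma), being -0.66 at 4 h and 1.43 at 8 h. It moved by 1.98 ± 0.30 for *Hif3a*, by 1.83 ± 0.31 for *Pnpla2*, by 1.75 ± 0.25 for *Cdkn1a* and by 1.14 ± 0.20 for *Fkbp5*. The purine-degrading enzyme gene *Xdh* moved by 1.17, *Adssl1*, an enzyme of adenylate synthesis in muscle, by 1.07, the elongation factor gene *Aff1* by 1.03, the secreted phospholipase *Pla2g3* by 0.97 and *Nanos2* by 0.91. On the called probes, each of these 10 genes was below its risperidone level at 4 h and above it at 8 h, on means of 3 arrays. The genes were picked for a large change between these times, so this order is partly set by the choice. None of their 4 h differences was called. Other probes of some of them did not follow: the brightest *Adssl1* probe changed by 0.27, with an 8 h difference of -0.03, and dim probes of *Pla2g3* and *Aff1* had 8 h differences of -0.11 and -0.07. The change holds both drugs' courses. Relative to vehicle, *Angptl4* was at 0.78 and 1.64 at 4 and 8 h after mianserin, and at 1.44 and 0.21 after risperidone, so mianserin was still climbing on the means while risperidone returned. *Xdh* was at 0.32 and 0.97 after mianserin, and at 0.72 and 0.20 after risperidone. *Adssl1* was at 0.00 and 0.49 after mianserin, and at 0.58 and 0.00 after risperidone, so it had no mianserin response at 4 h that could last. The count of called changes was 19 in all, 8 without mianserin 4 h replicate 3, 11 without mianserin 8 h replicate 3, 12 without risperidone 4 h replicate 2 and 34 without mianserin 8 h replicate 2.

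The opposite change was called for *Dusp6*, the phosphatase that turns off ERK, for the cyclic AMP phosphodiesterase *Pde4b*, for *Nrp1*, a co-receptor for semaphorins and VEGF, and for *Setbp1* and *Emcn*. *Dusp6* (probe ILMN_2925711) read 12.12, 11.65 and 11.88 at 4 h after mianserin, against 11.44, 11.27 and 11.43 after risperidone. At 8 h it read 11.50, 11.57 and 11.52 after mianserin, against 12.17, 12.25 and 12.50 after risperidone. The groups did not overlap at either time and changed places between them, a change of -1.28 ± 0.23 (SE, adjusted p = 0.0011, limma). The other *Dusp6* probes changed by -1.07 and -0.02 and were not called. *Pde4b* read 10.62, 10.48 and 10.62 at 4 h after mianserin, against 9.90, 9.76 and 10.11 after risperidone, and 10.05, 10.14 and 9.95 at 8 h after mianserin, against 10.48, 10.44 and 10.77 after risperidone. Its change was -1.17 ± 0.21 (SE, adjusted p = 9.22e-04, limma), and the other 3 *Pde4b* probes gave -0.34 to 0.11 with none called. *Nrp1* changed by -1.10, *Setbp1* by -0.98 and *Emcn*, a sialomucin of the endothelium, by -0.92. The other *Nrp1* probes changed by -0.72 and -0.25, and a dimmer *Setbp1* probe by -0.19, with none called. No 4 h difference of the genes in this paragraph was called.

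The probes that responded at 4 h in the mean of both drugs gave the same order at 8 h. Probes were taken that differed from the 6 vehicle arrays at 4 h in the mean of both drugs. This choice does not favour either drug and uses no 8 h mean, but a response to each drug alone was not required. The spread in its test came from all groups of the fit, 8 h arrays included. The choice gave 341 raised probes (0.753% of those tested, 258 genes) and 155 lowered probes (0.342%, 123 genes). Relative to vehicle, the median of the raised probes was 0.07, 0.25, 0.49 and 0.43 at 1, 2, 4 and 8 h after mianserin, and 0.14, 0.24, 0.51 and 0.08 after risperidone. The medians thus lay close to each other up to 4 h and parted at 8 h. At 1 h risperidone was farther from vehicle on both medians. Mianserin was then higher for 97 of the 341 raised and 111 of the 155 lowered probes. On single arrays at 8 h this median was 0.59, 0.27 and 0.46 after mianserin, against 0.03, 0.09 and 0.11 after risperidone, with no overlap. The lowered probes had medians of -0.11, -0.30, -0.50 and -0.32 after mianserin, and of -0.18, -0.26, -0.43 and 0.07 after risperidone. On single arrays at 8 h they read -0.59, -0.07 and -0.26 after mianserin, against 0.01, 0.10 and 0.10 after risperidone.

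Mianserin was above risperidone at 8 h for 333 of the 341 raised probes, with a median difference of 0.36, and above it for 2 of the 155 lowered probes, with a median difference of -0.39. Over all 45279 probes, 23127 lay above 0 at 8 h and the median was 0.00. Of the raised probes, 271 still held more than 0.5 of their 4 h change at 8 h after mianserin, against 31 after risperidone; of the lowered probes, 89 did so after mianserin, against 4 after risperidone. Of the 40 probes called higher at 8 h, 38 were among the 341, and of the 12 called lower, 6 were among the 155. Vehicle means enter these counts for both drugs alike and cancel from the differences between them. Without mianserin 8 h replicate 1 the median difference was 0.28 for raised and -0.23 for lowered probes.

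**Figure D2:**
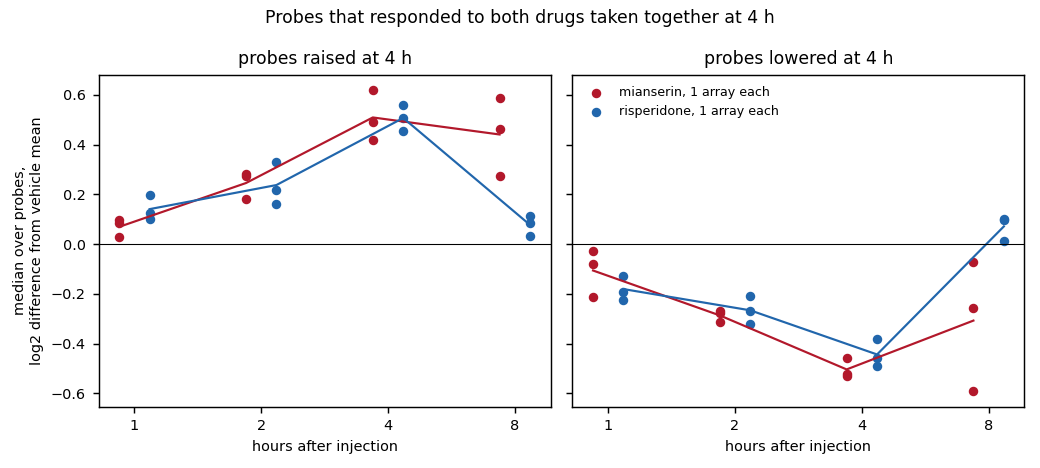
Median over the 341 probes raised at 4 h (left) and the 155 lowered at 4 h (right) of the log2 difference from the mean of 6 vehicle arrays (y axis) against hours after injection (x axis), 1 point per array, with lines through the means of 3 arrays. Mianserin and risperidone points lie close together up to 4 h (raised probes at 1 h: 0.03 to 0.10 after mianserin and 0.10 to 0.20 after risperidone), and at 8 h the 3 mianserin points lie farther from 0 on the side of the 4 h response than the 3 risperidone points.

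Of the 40 probes called higher at 8 h, which cover 34 genes, none was called at 1, 2 or 4 h, and their median difference was -0.11, 0.01, -0.04 and 0.78 over the 4 times. Glucocorticoid targets were among them. Of 28 listed genes, 8 were higher and 0 lower by the test at 8 h, with a median of 0.38. Over all probes tested, 0.0883% were called higher and 0.0265% lower, with a median of 0.00. Those 8 were *Cdkn1a*, *Angptl4*, *Ddit4*, *Hif3a*, *Map3k6*, *Fkbp5*, *Nfkbia* and *Tsc22d3*. *Ddit4*, an inhibitor of the growth regulator mTOR, read 12.20, 11.31 and 11.78 after mianserin, against 10.79, 10.68 and 10.26 after risperidone, with vehicle arrays at 10.23 to 11.19. The mianserin arrays were above the vehicle range and the risperidone arrays inside it, a difference of 1.18 ± 0.22 (SE, adjusted p = 0.00136, limma). *Tsc22d3*, a transcription regulator that mediates anti-inflammatory effects of glucocorticoids, read 13.82, 13.62 and 13.92 after mianserin, against 12.92 to 13.10 after risperidone, a difference of 0.78 ± 0.17 (SE, adjusted p = 0.0159, limma). *Nfkbia*, which holds NF-kappaB in the cytoplasm, differed by 0.79, and the stress kinase gene *Map3k6* by 0.90 and 0.80 on its 2 probes.

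Not every glucocorticoid target behaved so. *Sgk1*, the serum- and glucocorticoid-regulated kinase, differed by 0.89 with overlapping arrays (adjusted p = 0.335, limma), the feedback inhibitor *Errfi1* by 0.69 (adjusted p = 0.0789, limma), *Klf9* by 0.11, *Mt1* by 0.10, *Pdk4* by 0.20 and *Dusp1* by -0.09. The list was written with results of these arrays known, so its count is a description.

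Genes that FOXO factors and fasting induce overlap with that list. Of 26 measured, 6 were called higher and 0 lower at 8 h, with a median of 0.22, beside 0.0883% and 0.0265% of all probes. The 6 were *Angptl4*, *Ddit4*, *Pnpla2*, *Txnip*, *Arrdc2* and *Trp53inp1*. *Txnip*, which inhibits thioredoxin and glucose uptake, read 12.07, 11.14 and 11.95 after mianserin, against 10.26, 10.68 and 10.66 after risperidone. Its 2 probes differed by 1.19 ± 0.25 and 1.06 ± 0.23 (SE) and both were called. The alpha-arrestin *Arrdc2* differed by 0.94, and *Trp53inp1*, a p53-induced stress protein, by 0.76. Among 23 growth arrest genes of the p53 type, *Cdkn1a* and *Trp53inp1* were called and the median was 0.15. *Foxo1* (0.13), *Foxo3* (-0.17), *Klf15* (0.17), *Mdm2* (0.05) and *Gadd45a* (0.29) were not called.

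Of the study's co-regulated gene groups, networks beta and gamma were on the mianserin side at 8 h. These groups were defined on the same arrays and are no independent set. Network beta had 42 of 43 probes above 0, 13 called higher and 0 lower, and a median of 0.48, against -0.18 at 4 h. Network gamma had 26 of 27 above 0, 5 called higher and 0 lower, and a median of 0.51. Its called probes include the *Per1* probes ILMN_1249997 and ILMN_1254574 (0.77 and 0.86), both dim at a mean signal of 8.03 and 8.02. Brighter *Per1* probes gave -0.10 and -0.12. Over all 45279 probes, 23127 were above 0 at 8 h, 0.0883% were called higher and 0.0265% lower. Network alpha, which holds the early response genes, was mixed, with 6 called higher and 3 lower of 105 probes and a median of -0.09. *Cirbp*, a cold-inducible RNA-binding protein of network gamma, read 12.26, 12.10 and 12.52 at 8 h after mianserin, against 11.84, 11.54 and 11.69 after risperidone, with vehicle at 11.13 to 11.76. The arrays did not overlap, but its difference of 0.60 was not called (adjusted p = 0.377, limma).

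**Figure D3:**
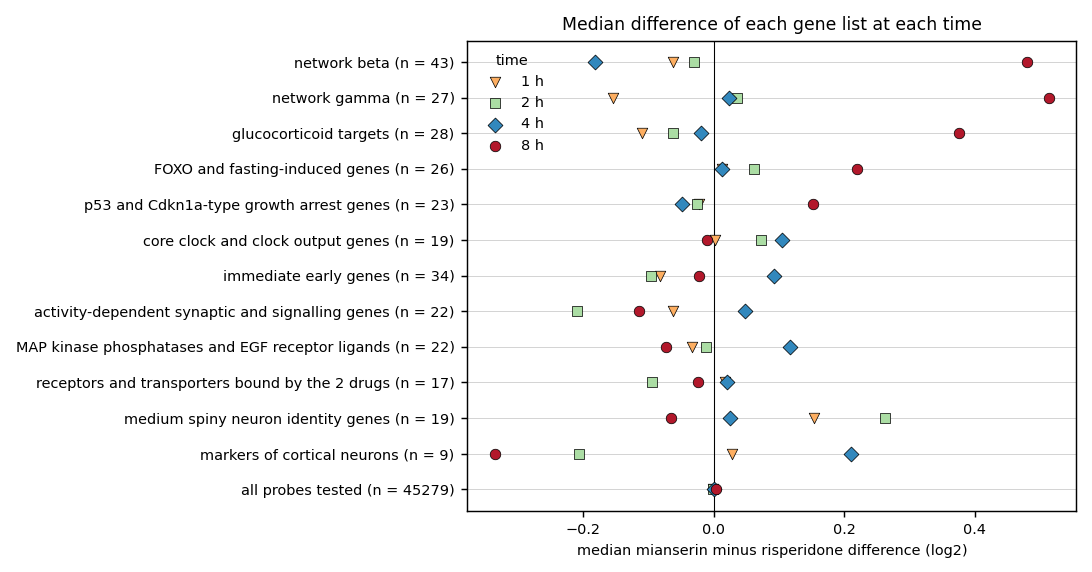
Median mianserin minus risperidone difference on the log2 scale (x axis) of the measured members of each gene list (rows, with the number of probes), 1 symbol per time. At 8 h networks beta and gamma and the glucocorticoid targets lie at 0.48, 0.51 and 0.38, the cortical neuron markers at -0.34, and all probes at 0.00.

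Among the other genes higher after mianserin at 8 h, *Polr3e*, a subunit of RNA polymerase III, read 11.28, 10.00 and 10.31 after mianserin, against 9.34, 9.28 and 9.24 after risperidone. Replicate 1 stood above the other mianserin arrays, and the difference was 1.24 ± 0.20 (SE, adjusted p = 4.43e-05, limma), while a dimmer *Polr3e* probe gave 0.07. *Mvp*, which forms vault particles, differed by 0.91, the ectonucleotidase gene *Nt5e* by 0.83, the chemokine gene *Ccl17* by 0.82, *Plat*, the tissue plasminogen activator, by 0.81, and *Xdh* by 0.77. Dimmer probes gave 0.43 for *Nt5e*, and 0.06 and 0.05 for *Plat*, and were not called. The clock gene *Per1* was called at 0.77 and 0.86 on 2 dim probes with a mean signal of 8.03 and 8.02, of which only the first carries the symbol in the array annotation. The 2 bright *Per1* probes, at 11.80 and 10.44, gave -0.10 and -0.12, so a direction for *Per1* itself cannot be given. Of 19 clock genes 0 were called at 8 h on 1 probe per gene, the brightest of the study's network probes or else the brightest of all. For *Per1* this was the bright probe at 10.44, so its called dim probes did not enter the count. Of the 19 genes, 3 had an unadjusted p under 0.05, and the median was -0.01.

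Genes lower after mianserin at 8 h were fewer, 12 probes with 10 named genes, and included activity-dependent genes. *Egr2*, a zinc finger transcription factor of the immediate early class, read 8.34, 8.66 and 8.76 after mianserin, against 9.95, 10.08 and 10.47 after risperidone, with vehicle arrays at 8.78 to 9.45. Mianserin arrays were below the vehicle range and risperidone arrays above it, a difference of -1.58 ± 0.22 (SE, adjusted p = 4.15e-07, limma). *Egr2* was also the single gene called at 1 h, where it read 10.54, 10.77 and 10.53 after mianserin, against a mean of 11.88 ± 0.16 (SD, n = 3) and a lowest value of 11.70 after risperidone and 10.46 to 11.21 on vehicle arrays. There the difference was -1.27 (adjusted p = 0.00201, limma), and risperidone alone had left the vehicle range. This call was lost without mianserin 1 h replicate 1 or 3 or without risperidone 1 h replicate 1 or 3. It was also lost with chip as a fixed block (adjusted p = 0.812, limma) and with position as a term (-1.19, adjusted p = 0.146, limma). At 2 h *Egr2* read 9.95 to 10.02 after mianserin, against 10.91 to 11.23 after risperidone, a difference of -1.06 that was not called at that time. At 4 h it was 8.66, 9.09 and 8.63 after mianserin, against 9.10, 9.12 and 9.09 after risperidone. Averaged over the 4 times *Egr2* was lower after mianserin by a difference of -1.05 (adjusted p = 4.07e-12, limma), with the mianserin arrays below all risperidone arrays at 1, 2 and 8 h and overlapping with them at 4 h.

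*Homer1*, a scaffold of the postsynaptic density, read 11.81, 10.73 and 10.77 at 8 h after mianserin, against 12.59, 12.14 and 12.23 after risperidone, with vehicle arrays at 11.85 to 12.46. The difference was -1.22 ± 0.22 (SE, adjusted p = 0.00116, limma) on the probe that the study names *Homer1* and the array annotation leaves without a symbol. The other 4 *Homer1* probes gave -0.59, -0.49, -0.03 and 0.13, and none was called. *Npas4*, a transcription factor induced by neuronal activity, read 8.50, 8.98 and 8.92 after mianserin, against 9.21, 9.78 and 10.25 after risperidone, with vehicle at 9.18 to 9.63. Its difference was -0.95 ± 0.18 (SE, adjusted p = 0.00165, limma), and a dimmer second probe gave -0.09 and was not called. At 4 h *Npas4* had been below vehicle after both drugs, at 8.70 to 8.90 after mianserin, against 8.68 to 8.76 after risperidone. *Dusp6* differed by -0.77, the chromatin reader *Ing2* by -0.84, the ADP receptor gene *P2ry13* by -0.76, the splicing factor subunit *Sf3a1* by -0.69, *Fam13c* by -0.64, the vesicle adaptor *Fyco1* by -0.60 and *Slitrk1*, a synaptic adhesion protein, by -0.53. Where these genes had other probes, those were not called, among them dimmer probes of *Sf3a1* at 0.09 and of *Slitrk1* at -0.10 and -0.07.

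Of 34 immediate early genes, *Egr2* and *Npas4* were called lower at 8 h and 0 higher, and the median was -0.02. Over all probes, 0.0265% were called lower at that time. *Egr1* read 13.78, 14.16 and 13.94 at 8 h after mianserin, against 14.86, 14.83 and 14.88 after risperidone, but missed the threshold at -0.90 (adjusted p = 0.0652, limma). *Egr3* missed it at -0.79 (adjusted p = 0.0706, limma), and *Arc*, the activity-regulated cytoskeletal gene, at -0.94 (adjusted p = 0.283, limma), although their arrays did not overlap. *Fos* read 11.03, 10.86 and 11.11 at 4 h after mianserin, against 9.89, 9.56 and 9.86 after risperidone, a difference of 1.23 with no overlap that was not called, and overlapped at 8 h. Of 22 activity-dependent synaptic genes only *Homer1* was called, with 16 of 22 below 0 and a median of -0.12, beside 22152 of all 45279 probes below 0. The *Jun*, *Ier2*, *Atf3* and *Nr4a1* differences at 8 h lay between -0.02 and 0.22.

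Markers of cortical neurons also lay lower after mianserin at 8 h. All 9 measured markers were below 0 at 8 h (median -0.34, lowest *Tbr1* at -0.67, 0 called, 2 at an unadjusted p under 0.05), and the mean signal of the list was 9.07 to 9.58 on mianserin arrays, against 9.69 to 9.77 on risperidone arrays. Over all 45279 probes, 22152 were below 0 at 8 h. At 1 h 6 of the 9 markers were above 0 (median 0.03), at 2 h 7 were below 0 (median -0.21), and at 4 h 8 were above 0 (median 0.21). Their part in the difference of *Egr2*, *Homer1*, *Npas4* and *Dusp6* was not tested. Fewer cells of a type and less RNA per cell cannot be told apart in tissue RNA. Identity genes of the medium spiny neuron, the main striatal neuron, averaged 11.98 to 12.12 at 8 h on mianserin arrays, against 12.10 to 12.16 on risperidone arrays, with 0 of 19 called and a median of -0.07. Of 17 receptors and transporters that the drugs bind, 0 were called at 8 h, with 3 at an unadjusted p under 0.05, and *Drd2*, *Htr2a* and *Hrh1* differed by -0.01, 0.01 and 0.15.

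**Figure D4:**
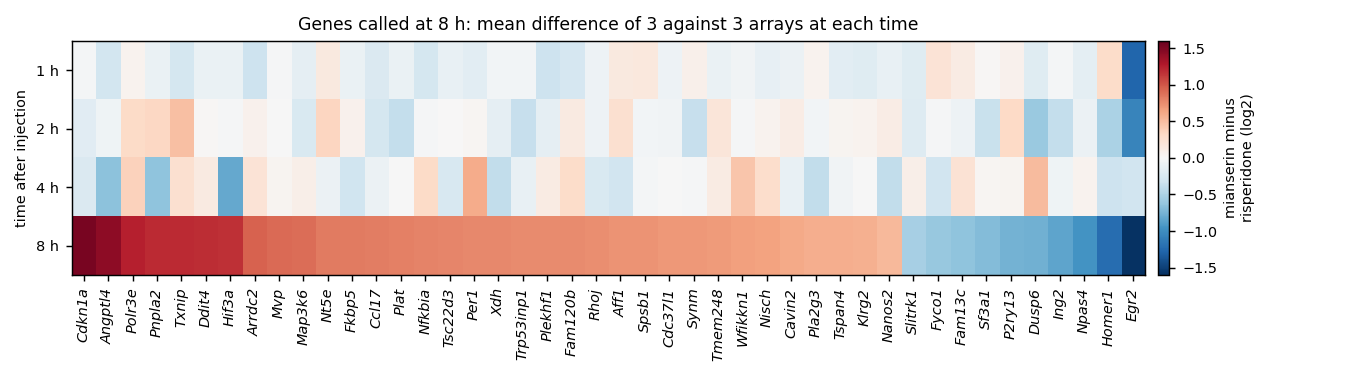
Mianserin minus risperidone difference (colour, log2) at 1, 2, 4 and 8 h (rows) for the 44 named genes called at 8 h (columns, ordered by the 8 h difference, 1 probe per gene). *Egr2* is blue at all 4 times, whereas *Angptl4*, *Pnpla2* and *Hif3a* are blue at 4 h and red at 8 h.

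At 4 h the 3 called probes belonged to *Klf4*, a zinc finger transcription factor, and *Reln*, the extracellular glycoprotein reelin. *Klf4* (probe ILMN_2999439) read 9.18, 8.94 and 9.20 after mianserin, against 8.59, 8.16 and 8.27 after risperidone, with vehicle at 8.36 to 8.73. Its 2 called probes differed by 0.77 and 0.73 (adjusted p = 0.0131 and 0.0148, limma), and at 8 h by 0.04 and 0.11. *Reln* differed by 0.98 (adjusted p = 0.0105, limma) on a dim probe that read 9.25, 9.58 and 9.34 after mianserin, against 8.38, 8.29 and 8.56 after risperidone. The other 4 *Reln* probes, the brightest included, and the third *Klf4* probe were not called. The called probes of both genes also passed the F test over the 4 times, and neither gene was called at another single time or in the average. No probe was called at 4 h without mianserin 4 h replicate 3, without risperidone 4 h replicate 2, with chip as a fixed block (*Klf4* 0.62, *Reln* 0.96), with position as a term (*Klf4* 0.76, *Reln* 1.01) or relative to the own vehicle.

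The difference averaged over the 4 times was higher for *Polr3e* (0.49), for *Per1* on the dim probe discussed above (0.31) and for haemoglobin genes, and lower for *Egr2* and for *Clk1*, a kinase of splicing factors (-0.62). *Clk1* read 9.38, 9.42 and 9.52 at 4 h after mianserin, against 9.88, 10.39 and 10.76 after risperidone, with vehicle at 10.40 to 11.23. At 8 h it read 9.36, 11.10 and 10.99 after mianserin, against 11.16, 10.94 and 11.53 after risperidone, where 1 mianserin array stood apart from the other 2. The average count was 1 without mianserin 1 h replicate 3 or without risperidone 4 h replicate 3. *Hba-a1* differed by 0.51, *Hbb-bt* by 0.50 and *Hbb-bs* by 0.47 (adjusted p = 0.0159, 0.0192 and 0.0192, limma). *Hba-a1* read 14.96, 14.74 and 14.98 at 2 h after mianserin, against 14.29, 14.10 and 14.15 after risperidone, with vehicle at 14.46 to 14.90. Probes for near-identical haemoglobin genes can bind each other's transcripts, and blood in the tissue was not measured apart. Choroid plexus RNA also varied between arrays of 1 group. *Ttr*, its main secreted protein, read 12.29, 15.17 and 15.77 at 4 h after mianserin, against 12.40, 11.72 and 11.07 after risperidone, and was not called.

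The promoters of the called genes were searched for 4 motifs that bind factors of these pathways, because the genes moved together at 8 h. RefSeq promoters (GRCm38.p6, windows of 300 bases that lie mostly before a gene start) were at hand for 29 of the 34 higher and all 10 lower genes. The E-box CACGTG, bound by clock and MYC-type factors, was in 6 of the 29 higher genes (20.7%). It was in 1 of the 10 lower genes (10%), against 8.09% of all 27025 genes. The 6 were *Fkbp5*, *Per1*, *Polr3e*, *Synm*, *Tmem248* and *Tspan4*. Of these, *Per1* counts as higher through its dim probes alone, and its own direction cannot be given. The FOXO motif TGTTTAC was in 1 of the 29 (3.45%, against 4.05% of all), and the cyclic AMP element TGACGTCA in 0 (2.03% of all). The full glucocorticoid receptor element, AGAACA and TGTTCT with 3 bases between them, was in 0 (0.0111% of all). It is so rare in these windows that 0 of 29 cannot show that the called genes lack such elements. By another method, the paper found glucocorticoid-response elements over-represented at network beta genes. Both strands were read, and a gene with several starts counted once. *Fkbp5*, *Polr3e* and *Egr2* are shown for the E-box and *Txnip* for the FOXO motif, with the motif in capitals and each sequence 5′ to 3′ on the strand of its gene.
Fkbp5, chr17:28486100-28486399, minus strand: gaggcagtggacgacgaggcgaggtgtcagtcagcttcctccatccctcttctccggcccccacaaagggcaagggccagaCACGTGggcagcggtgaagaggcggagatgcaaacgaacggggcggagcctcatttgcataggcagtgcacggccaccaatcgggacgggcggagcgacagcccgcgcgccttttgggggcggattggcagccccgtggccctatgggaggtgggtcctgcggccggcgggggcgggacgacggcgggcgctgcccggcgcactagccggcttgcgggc
Polr3e, chr7:120917528-120917827, plus strand: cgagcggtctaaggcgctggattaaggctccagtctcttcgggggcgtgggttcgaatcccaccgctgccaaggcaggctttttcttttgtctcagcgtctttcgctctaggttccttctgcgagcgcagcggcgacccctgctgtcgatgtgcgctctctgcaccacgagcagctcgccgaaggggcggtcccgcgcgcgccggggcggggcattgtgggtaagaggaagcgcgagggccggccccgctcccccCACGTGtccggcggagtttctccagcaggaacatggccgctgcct
Txnip, chr3:96557707-96558006, plus strand: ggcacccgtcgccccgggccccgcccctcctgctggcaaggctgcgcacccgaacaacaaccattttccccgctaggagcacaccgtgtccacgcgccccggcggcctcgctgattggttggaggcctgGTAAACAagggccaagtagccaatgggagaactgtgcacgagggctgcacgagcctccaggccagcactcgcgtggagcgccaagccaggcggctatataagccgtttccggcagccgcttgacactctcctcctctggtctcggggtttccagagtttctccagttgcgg
Egr2, chr10:67535249-67535548, plus strand: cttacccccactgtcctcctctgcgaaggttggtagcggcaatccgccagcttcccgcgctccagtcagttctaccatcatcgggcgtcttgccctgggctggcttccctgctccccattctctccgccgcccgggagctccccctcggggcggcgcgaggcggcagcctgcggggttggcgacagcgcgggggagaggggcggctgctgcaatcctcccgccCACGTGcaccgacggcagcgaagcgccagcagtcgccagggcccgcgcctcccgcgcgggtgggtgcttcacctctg
In *Txnip* the capitals are the FOXO motif read on the other strand. A match describes letters in this window and is not a measured binding site.

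*Cdkn1a* and *Angptl4* differed at 8 h by 1.90 and 1.56 when each drug was taken relative to its own vehicle, by 1.46 and 1.56 with position on the chip as a term, and both stayed called in each. Relative to the own vehicle, 8 of the 44 named genes called at 8 h stayed called. They were *Angptl4*, *Cdkn1a*, *Ddit4*, *Fkbp5*, *Map3k6*, *Nt5e*, *Per1* and *Polr3e*. All 44 kept their direction on the called probe. For *Per1* that is the dim probe ILMN_1249997, while its bright probes gave -0.10 and -0.12 in the fit as reported. With position as a term 20 stayed called. All 12 risperidone arrays sat at position D of their chip, against 0 mianserin arrays. *Egr2*, *Homer1*, *Npas4* and *Dusp6* were not called relative to the own vehicle, with values of -1.36, -1.08, -0.89 and -0.55. With no normalization between arrays the 8 h values were lower, at 0.14 for *Nanos2* (0.51 as reported), 0.19 for *Cavin2* (0.61), 0.18 for *Nisch* (0.64), 0.14 for *Cirbp* (0.60), 1.06 for *Cdkn1a* and 1.08 for *Angptl4*. Leaving out each 8 h array in turn, 5 genes stayed called in all 6 fits, namely *Angptl4*, *Cdkn1a*, *Egr2*, *Fkbp5* and *Map3k6*. No chip held both drugs at the same time, so no difference at 1 time could be taken within a chip.

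**Figure D5:**
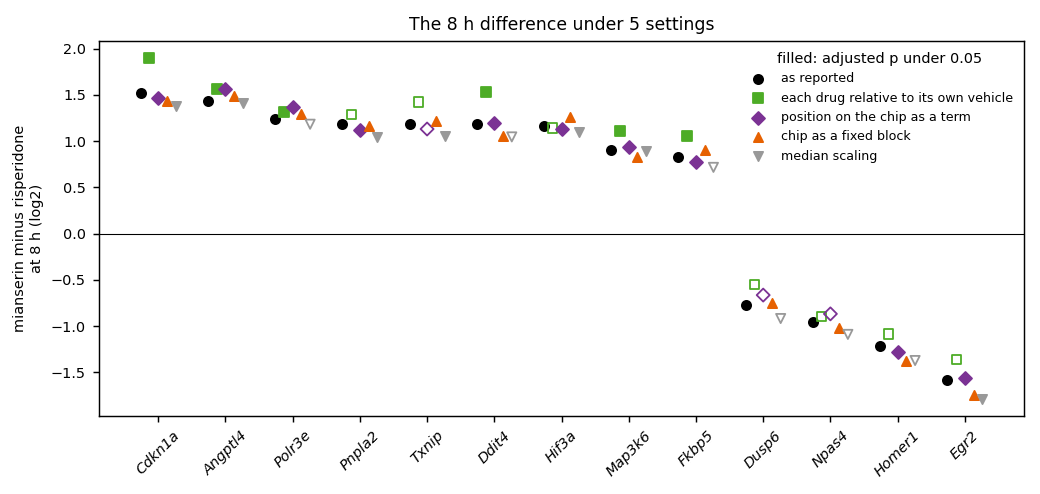
Mianserin minus risperidone difference at 8 h on the log2 scale (y axis) for 13 genes (x axis) as reported and under 4 other settings, filled where the adjusted p is under 0.05. Every point of a gene lies on the same side of 0, from *Cdkn1a* at 1.52 to *Egr2* at -1.58 as reported, and the points for each drug relative to its own vehicle are open for *Dusp6*, *Npas4*, *Homer1* and *Egr2*.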

How the data were processed

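Striatal RNA was hybridised to Illumina MouseWG-6 v2 arrays. The authors deposited a non-normalized table of log2 signals and a table of log2 values after their background subtraction and quantile normalization in BeadStudio and BeadArray. The first was used, quantile normalized here over all 156 arrays (limma 3.58.1, R 4.3.3; figures in matplotlib 3.10.9, Python 3.11.15). Of 45281 probes, 2 lacked a value on an array and were not tested. A model with 52 group means (104 residual degrees of freedom, moderated with an intensity trend) gave mianserin minus risperidone at each time, their average, the F tests and the change between 4 and 8 h. The SE of each difference came from this model, with the spread taken over all its groups. A probe was called at a false discovery rate of 5%. No filter on dim probes was set, and detection p-values were not used. Probe names came from the platform annotation (10378 probes without a symbol), and 13 probes were named as in the study. Named genes, with 1 probe per gene, were the markers *Cdkn1a*, *Cirbp* and *Homer1*, the highest and lowest called differences of each contrast (at single times only where the arrays did not overlap), called members of the lists and genes the paper names. Other genes and probes given beside them were chosen after their values were seen. The members, lists and tests were chosen with earlier results of these data known. Each array is a separate pool of 2 mice. Replicate numbers did not pair the arrays (correlation of deviations -0.37 to 0.13 over 12 pairs). The scripts were tested on simulated data. Alternatives were other normalizations, samples in the fit, chip, position, replicate block, own vehicle, no trend, brighter probes, unmoderated tests and leaving out each array. The number of arrays limits the precision.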

Additional observations from a re-analysis of the deposited data

Results flagged for a closer look

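The difference between mianserin and risperidone itself differed between times for 24 probes, 13 by both tests (the change between 4 and 8 h and the interaction over the 4 times), 6 by the change alone and 5 by the interaction alone (limma, 5% false discovery rate). The change of the mianserin minus risperidone difference from 4 to 8 h was 2.09 for *Angptl4*, 1.98 for *Hif3a*, 1.83 for *Pnpla2*, and 1.75, 1.68 and 1.53 for the 3 *Cdkn1a* probes. It was 1.17 for *Xdh*, 1.14 for *Fkbp5*, 1.07 for *Adssl1*, 1.03 for *Aff1*, 0.97 for *Pla2g3* and 0.91 for *Nanos2*. By the interaction alone it was 0.92 for *Ccl17*, 0.87 for *Trp53inp1*, 0.80 for *Map3k6*, 0.18 for a dim *Per1* probe and -0.95 for *Fam13c*. In the opposite direction it was -0.92 for *Emcn*, -0.98 for *Setbp1*, -1.10 for *Nrp1*, -1.17 for *Pde4b*, -1.28 for *Dusp6*, and -1.04 and -1.11 for probes ILMN_2578681 and ILMN_1241686, which have no gene symbol here.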

How the results depend on the processing

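None of the 70 gene values changed sign in the settings run for it, which were 18 to 37 per value, since an array was left out only for values that use it. The counts of calls moved more; the cause was not tested. They are given for the average, 1 h, 2 h, 4 h, 8 h, any time, the interaction and the duration change, which were 7, 1, 0, 3, 52, 42, 18 and 19 as reported. They were 1, 0, 0, 7, 18, 17, 9 and 2 with median scaling, 1, 0, 0, 0, 1, 1, 0 and 0 with no normalization, 1, 0, 0, 0, 11, 4, 2 and 6 with each drug relative to its own vehicle, and 1, 0, 0, 0, 25, 20, 18 and 19 with position as a term. They were 29, 0, 0, 0, 71, 46, 13 and 22 with chip as a fixed block, 19, 1, 1, 6, 81, 60, 17 and 36 with chip as a random block, 10, 1, 1, 5, 117, 84, 44 and 56 with the spread of the first chip set, and 2, 1, 1, 2, 29, 9, 7 and 14 with that of the 24 arrays. They were 7, 1, 0, 6, 59, 48, 20 and 33 with no intensity trend, and 6, 1, 0, 7, 75, 51, 22 and 38 with the brighter probes. Unmoderated tests gave 1, 0, 0, 0, 0, 1, 0 and 2 (2369 probes at an unadjusted p under 0.05 at 8 h, 2313 in limma). The replicate block gave 7, 1, 0, 3, 57, 42, 18 and 19, and the values as the authors normalized them gave 7, 1, 0, 3, 54, 40, 17 and 20. Leaving out each array gave 1 to 9, 0 to 1, 0 to 0, 0 to 7, 20 to 94, 19 to 58, 9 to 34 and 8 to 34.

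With no normalization the median 8 h difference was -0.042 for the raised and -0.82 for the lowered 4 h response probes, while all probes shifted by -0.34; relative to that shift the medians were 0.30 and -0.47. Leaving out each array gave 0.28 to 0.46 and -0.48 to -0.23. These 2 medians were added after seeing the data.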
